A study of Mus musculus with 8 samples.

Results

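The 7 genes described here, Ephb2, Ephb3, Ephb4, Epha2, Efnb1, Efnb2 and Efna1, encode Eph receptors and ephrins, and were taken by symbol from the 27998 gene identifiers of a single-cell RNA sequencing data set of the mouse small intestine. All 7 were found, and each had UMIs (unique molecular identifiers, each standing for 1 captured transcript) in both groups. The cells carried EpCAM, an epithelial surface protein, and had been sorted from small intestinal crypts of adult mice on a C57BL/6 background. The group labelled KO came from mice homozygous for a deletion of ieCtnnb1, an enhancer upstream of Ctnnb1, which encodes β-catenin. The group labelled WT came, per the study's methods, from mice that carried a reporter of this enhancer at the H11 locus, so these controls were not plain wild-type animals. The labels list 4 samples per group, but the values came as 1 pooled count matrix per group in which no cell could be assigned to a sample. Each group was therefore 1 sample, no test between KO and WT was possible, and every interval below is a 95% interval for counting error only.

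Eph receptors are receptor tyrosine kinases, and ephrins are their ligands, which are themselves anchored in the membrane of neighbouring cells. Binding therefore needs contact between cells, and it sends signals both into the cell with the receptor and into the cell with the ephrin, often ending in repulsion. In the intestinal crypt EphB2 and EphB3 are known targets of Wnt and β-catenin signalling that mark the proliferative bottom of the crypt, ephrin-B1 and ephrin-B2 increase towards the villus, and EphB3 is known for keeping Paneth cells at the crypt base.

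The upstream sequences of the 4 genes of this receptor and ligand gradient are shown because the comparison concerns an enhancer of β-catenin, whose partners of the TCF family bind DNA. They are the bases from 250 to 51 before the annotated start, read on the strand of the gene, from RefSeq on GRCm38.p6, with CG dinucleotides in capitals.
Ephb2 (chr4:136836063-136836262, minus strand): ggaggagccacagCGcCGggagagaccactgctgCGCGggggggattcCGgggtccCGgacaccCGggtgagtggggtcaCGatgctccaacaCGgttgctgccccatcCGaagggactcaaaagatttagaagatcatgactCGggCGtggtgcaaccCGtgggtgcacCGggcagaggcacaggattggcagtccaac
Ephb3 (chr16:21204545-21204744, plus strand): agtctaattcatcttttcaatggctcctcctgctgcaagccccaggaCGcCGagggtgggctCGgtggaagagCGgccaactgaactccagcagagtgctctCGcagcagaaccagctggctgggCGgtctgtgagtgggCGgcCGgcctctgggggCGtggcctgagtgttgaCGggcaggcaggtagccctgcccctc
Efnb1 (chrX:99135811-99136010, plus strand): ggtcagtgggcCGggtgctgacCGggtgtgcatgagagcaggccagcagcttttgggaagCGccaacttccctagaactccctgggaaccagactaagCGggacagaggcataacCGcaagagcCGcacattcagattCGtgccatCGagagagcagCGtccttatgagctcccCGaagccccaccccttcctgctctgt
Efnb2 (chr8:8661293-8661492, minus strand): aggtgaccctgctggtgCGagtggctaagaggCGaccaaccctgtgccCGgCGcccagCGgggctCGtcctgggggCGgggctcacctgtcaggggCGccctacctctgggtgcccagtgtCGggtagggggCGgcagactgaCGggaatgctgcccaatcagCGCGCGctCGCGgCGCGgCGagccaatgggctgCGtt
Each stretch held many CG dinucleotides, from 10 in Ephb3 and Efnb1 to 14 in Ephb2 and 20 in Efnb2. Over the full window of 250 bases before to 50 after the start, G and C made up 68.7% of Ephb2, 66.7% of Ephb3, 59.7% of Efnb1 and 72.3% of Efnb2, against a median of 52.7% over 32851 mouse promoters. The letters CTTTGA or CTTTGT, the core that TCF factors bind, were searched on both strands. They were in none of these 4 windows, and among the 8 windows of the 7 genes only that of Epha2 held a match, shown in capitals at chr4:141301000-141301029 on the plus strand.
Epha2: accctggtggcgCTTTGAaatgagaaatct
Of all promoter windows 31.2% held one of these letter strings, and a window without them says nothing about binding elsewhere.

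In GENCODE M21, the annotation of GRCm38, Ephb2 lies on chr4:136647539-136835988 (minus strand), Ephb3 on chr16:21204755-21223305 (plus), Ephb4 on chr5:137350109-137378669 (plus) and Epha2 on chr4:141301240-141329384 (plus). The ephrin genes lie on chrX:99136130-99148991 (Efnb1, plus), chr8:8617434-8661242 (Efnb2, minus) and chr3:89271733-89281142 (Efna1, minus). Their summed exon length ran from 1830 bases in Efna1 to 12608 bases in Ephb2.

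After the filters 13095 WT and 8658 KO cells remained, with a median of 6675 and 8691.5 UMIs. The limit on mitochondrial UMIs removed 11.9% of the WT and 32.0% of the KO barcodes, and 57 cell barcodes occurred in both matrices. Clusters named from marker genes gave 8 classes: CBC-like (crypt base columnar, 392 WT and 406 KO cells), TAC-like (transit-amplifying, 1792 and 1052), imEC-like and mEC-like (immature enterocytes, 440 and 428, and mature enterocytes, 1525 and 1957), PC-like (Paneth, 3296 and 1097), GC-like (goblet, 2510 and 1101), EEC-like (enteroendocrine, 303 and 123) and TC-like (tuft, 157 and 77). The other 2680 WT and 2417 KO cells stayed unnamed. Cells of the KO matrix were deeper in every named class but mEC-like, where the median was 5024 UMIs in WT and 1487 in KO. Markers of other tissues were rare, with the summed level of 10 endothelial markers at 3.21 CPM (UMIs among 1000000) in WT and 4.30 in KO and Cdh5 and Flt1 at 0 in both (Ephb4 and Efnb2 are also genes of blood vessels).

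Levels are given as CPM, the number of UMIs of a gene among 1000000 UMIs of a class, and each gene is compared only with itself across classes and groups. Ephb2, the EphB receptor of stem and progenitor cells, was measured in WT at 67.9 CPM (58.7 to 78.1) in CBC-like, 56.2 CPM (52.2 to 60.3) in TAC-like, 30.4 CPM (25 to 36.5) in imEC-like and 6.47 CPM (4.74 to 8.63) in mEC-like cells. The level was thus lower at each step from the crypt base to mature enterocytes, and each of these steps was larger than its counting error. Among secretory classes Ephb2 stood at 75.4 CPM (59.4 to 94.4) in TC-like, 45.5 CPM (36.0 to 56.8) in EEC-like, 33.9 CPM (31.3 to 36.7) in GC-like and 8.49 CPM (7.84 to 9.17) in PC-like cells. In CPM of all UMIs, TC-like and CBC-like cells, the top of the order, did not differ beyond counting error. Neither did PC-like and mEC-like cells at its lower end.

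In KO Ephb2 was at 25 CPM (20.6 to 30.03) in CBC-like, 22.0 CPM (19.8 to 24.4) in TAC-like, 13.6 CPM (10.9 to 16.7) in imEC-like and 3.82 CPM (2.66 to 5.32) in mEC-like cells. The TC-like, EEC-like, GC-like and PC-like values were 27.5, 23.3, 20.9 and 5.48 CPM. Every class was lower in KO than in WT, and the upper part of the order was flatter, since the KO values of TC-like, CBC-like, EEC-like, TAC-like and GC-like cells did not differ from their neighbours in the order beyond counting error. The log2 ratio of KO to WT was -1.44 (-1.79 to -1.10) in CBC-like, -1.35 (-1.54 to -1.17) in TAC-like, -1.16 (-1.58 to -0.75) in imEC-like and -1.46 (-2.14 to -0.82) in TC-like cells. The difference was smaller in GC-like (-0.70, -0.88 to -0.52) and PC-like cells (-0.63, -0.84 to -0.42). Per cell and without any scaling by depth, CBC-like cells held 0.50 Ephb2 UMIs in WT and 0.278 in KO, although the KO cells were deeper. The markers of CBC-like cells summed to 1947 CPM in WT and 1157 in KO within the CBC-like class and to 636 and 347 CPM within the TAC-like class, and those of mEC-like cells to 827 and 1414 CPM and to 1489 and 2801 CPM. Within these classes the CBC-like sums were lower in KO, as Ephb2 was, and the mEC-like sums were higher. Single stem cell genes did not share 1 course in the CBC-like class. Between WT and KO, Olfm4 dropped from 409 to 114 CPM and Lgr5 only from 56.5 to 47.7 CPM. Ascl2, a stem cell transcription factor, was higher in KO there, with a log2 ratio of 0.91. A lower sum therefore does not mean that each stem cell gene was lower. The CBC-like sum was also lower in imEC-like, mEC-like, GC-like and TC-like cells. It came to 643 and 616 CPM in EEC-like and 192 and 194 CPM in PC-like cells, where Ephb2 was lower too. The part of these shifts in the result was not tested.

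Many genes were lower in KO on the CPM scale, which bears on how these ratios read. The median log2 ratio of all genes with at least 50 UMIs was -0.30 for CBC-like, -0.37 for TAC-like, -0.32 for imEC-like and -0.35 for mEC-like cells, against -0.08 for PC-like and 0.10 for EEC-like cells. It also went with the length of the transcripts, and among CBC-like cells the median was 0.22 for genes in the shortest quartile and -0.80 for the longest, to which Ephb2 belongs. Relative to all genes of the class Ephb2 was at -1.15 (CBC-like) and -0.98 (TAC-like), and relative to genes of its length quartile at -0.64 and -0.47. In GC-like and mEC-like cells it lay within 0.1 of its length quartile, at -0.04 and 0.08. The part of length and of library quality in the Ephb2 difference was not tested.

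**Figure D1:**
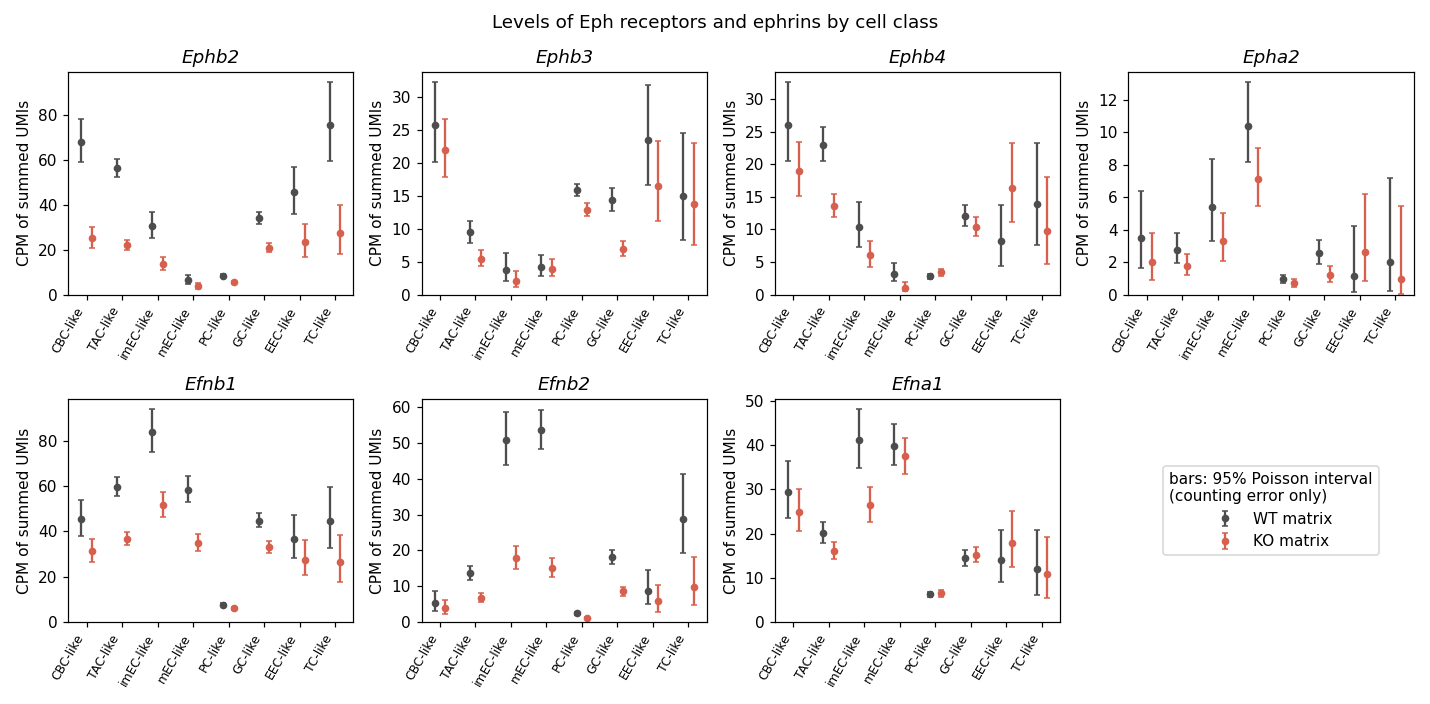
Level of each of the 7 genes in the 8 cell classes, in CPM (linear axis from 0), in the WT (grey) and KO (red) matrix, 1 pooled sample each. Points are levels and bars 95% Poisson intervals for counting error only. Ephb2 was highest in TC-like and CBC-like cells (75.4 and 67.9 CPM in WT) and Efnb2 in mEC-like and imEC-like cells (53.7 and 51.0 CPM in WT), and both stood lower in KO.

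Ephb3, the receptor known for the position of Paneth cells, followed another order. In WT it was measured at 25.6 CPM (20.1 to 32.2) in CBC-like, 23.3 CPM (16.7 to 31.8) in EEC-like, 15.8 CPM (14.9 to 16.7) in PC-like, 14.9 CPM in TC-like and 14.4 CPM in GC-like cells. TAC-like cells held 9.41 CPM (7.85 to 11.2), less than the CBC-like cells, and mEC-like and imEC-like cells 4.22 and 3.79 CPM. In KO the values were 21.9 CPM (17.8 to 26.6) in CBC-like, 16.4 CPM in EEC-like, 12.8 CPM (11.8 to 13.9) in PC-like, 6.87 CPM in GC-like and 5.47 CPM in TAC-like cells. CBC-like cells led in both matrices, but their value was not apart from that of EEC-like cells.

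The rank of PC-like cells depended on the denominator. Antimicrobial and other abundant transcripts filled most of the Paneth transcriptome, and the 35 genes that passed 1% of the UMIs of any class took up 78.3% of the PC-like UMIs in WT and 74.1% in KO, but 16.4% and 13.3% of the CBC-like UMIs. With these genes left out of the total, Ephb3 was highest in PC-like cells, at 72.8 CPM of the remaining UMIs in WT (68.8 to 77.1) and 49.6 in KO (45.7 to 53.7), and CBC-like cells stood at 30.7 and 25.2. Per cell, PC-like cells held 0.360 Ephb3 UMIs in WT and 0.562 in KO, and CBC-like cells 0.189 and 0.244. Ephb2, in contrast, stayed lower in PC-like than in CBC-like cells on this scale, at 39.2 against 81.3 CPM of the remaining UMIs in WT. PC-like cells were then not apart from imEC-like cells at 36.2 and stood above mEC-like cells at 8.61. TC-like cells, at 115, stood apart from CBC-like cells.

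Lyz1, the lysozyme gene of Paneth cells, was also measured in the other classes, in CBC-like cells at 10.6% of its PC-like level in WT and 8.35% in KO. If all of that Lyz1 were RNA of PC-like cells, free or in doublets, it would have brought 1.68 CPM of Ephb3 in WT and 1.07 in KO. The measured values were 25.6 and 21.9 CPM. An unnamed cluster described below held Lyz1 at 46333 CPM and Ephb3 at 109 CPM in WT, and at 51974 and 146 CPM in KO. RNA of its cells would bring more Ephb3 for the same Lyz1, and its part was not tested. The same calculation gave 5.47 of the 23.3 CPM in EEC-like and 3.78 of the 14.4 CPM in GC-like cells of WT. It took up more of the low values, with 5.22 of the 14.9 CPM in TC-like, 1.81 of the 4.22 CPM in mEC-like and 1.31 of the 3.79 CPM in imEC-like cells of WT.

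Between the groups Ephb3 differed less than Ephb2 at the crypt base. Its log2 ratio of KO to WT was -0.23 (-0.68 to 0.23) for CBC-like and -0.30 (-0.44 to -0.16) in PC-like cells, values past no 1.5-fold, and relative to all genes of the class 0.07 and -0.21. In the CBC-like class the intervals of Ephb2 and Ephb3 did not overlap. Relative to genes of its length quartile the CBC-like and PC-like values of Ephb3 were 0.25 and -0.09. The CBC-like ratio of Ephb3 kept its sign in 7 of 10 alternatives, and in the clustering without integration it was 0.27. In GC-like cells the ratio was -1.06 (-1.37 to -0.76) and in TAC-like cells -0.78 (-1.19 to -0.38).

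Ephb4, a receptor of ephrin-B2, was measured in WT at 26.0 CPM (20.4 to 32.6) in CBC-like, 23.0 CPM (20.5 to 25.7) in TAC-like, 10.3 CPM in imEC-like and 3.23 CPM in mEC-like cells, and in KO at 19.0, 13.6, 6.04 and 1.09 CPM. Both matrices thus showed the higher values in the stem and progenitor classes, with CBC-like and TAC-like cells not apart in WT. TAC-like cells had a log2 ratio of -0.76 (-1.01 to -0.50) and CBC-like cells one of -0.45 (-0.91 to 0.02). Relative to all genes of the class these came to -0.39 and -0.16, and relative to genes of its length quartile to -0.21 and 0.03. PC-like cells held 2.82 CPM in WT and 3.42 in KO, a ratio of 0.28 (-0.03 to 0.58), and GC-like cells 12.1 and 10.4 CPM. EEC-like cells held 8.17 CPM in WT and 16.4 in KO, on 14 and 31 UMIs, and these cells came mostly from the cluster led by Chgb in WT (182 of 303) and from that led by Gip in KO (89 of 123).

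Epha2, the EphA receptor of the set, had the fewest UMIs, 285 WT and 219 KO UMIs in total. It was highest in mEC-like cells, at 10.4 CPM (8.17 to 13.1) in WT and 7.10 CPM (5.48 to 9.05) in KO, and followed by imEC-like cells at 5.42 and 3.32 CPM. The mEC-like value stood apart from the next class in both matrices. All other classes lay between 0.944 and 3.46 CPM in WT and between 0.688 and 2.64 CPM in KO. In WT the Epha2 values of CBC-like and TAC-like cells, 3.46 and 2.74 CPM, were not apart, nor were those of imEC-like and CBC-like cells. Epha2 was thus highest at the mature end of the enterocyte lineage, where Ephb2 and Ephb4 were lowest. Its log2 ratio was -0.55 (-1.06 to -0.05) in mEC-like and -1.09 (-1.86 to -0.35) in GC-like cells. Relative to all genes of the class these came to -0.20 and -0.89, and relative to genes of its length quartile to -0.007 and -0.73. Without clusters of shallow cells the mEC-like ratio was -1.13.

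Efnb1, which encodes ephrin-B1, was measured in WT at 45.4 CPM (37.9 to 53.9) in CBC-like, 59.7 CPM (55.7 to 64.0) in TAC-like, 84.0 CPM (74.9 to 93.9) in imEC-like and 58.4 CPM (52.9 to 64.3) in mEC-like cells. Its peak was in immature enterocytes and stood apart from the next class in WT and in KO. The secretory classes held 44.8 CPM (GC-like), 44.7 CPM (TC-like), 36.8 CPM (EEC-like) and 7.58 CPM (PC-like). In KO the CBC-like, TAC-like, imEC-like and mEC-like levels were 31.2, 36.7, 51.5 and 34.8 CPM, and PC-like cells were again lowest at 5.96 CPM. The order of the lineage was kept while each level was lower, with log2 ratios of -0.54 (-0.90 to -0.19), -0.70 (-0.86 to -0.55), -0.71 (-0.93 to -0.48) and -0.74 (-0.96 to -0.53). Relative to all genes of the class these came to -0.25, -0.33, -0.38 and -0.40. Against genes of its length quartile they were -0.37, -0.48, -0.52 and -0.52.

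Efnb2, which encodes ephrin-B2, ran opposite to Ephb2 along the enterocyte lineage in WT, from 5.20 CPM (2.91 to 8.57) in CBC-like to 13.6 CPM (11.7 to 15.7) in TAC-like, 51.0 CPM (43.9 to 58.8) in imEC-like and 53.7 CPM (48.5 to 59.4) in mEC-like cells. TC-like cells followed at 28.8 CPM and GC-like cells at 18.1 CPM, and PC-like cells were lowest at 2.35 CPM. With the 35 abundant genes left out of the total, CBC-like cells were lowest in WT, at 6.22 against 10.9 CPM of the remaining UMIs in PC-like cells, and in KO these values were 4.33 and 4.03, not apart beyond counting error. In KO the lineage ran from 3.76 CPM (2.19 to 6.02) through 6.74 CPM (5.55 to 8.12) to 17.8 CPM (14.7 to 21.3) and 15.1 CPM (12.7 to 17.8). From CBC-like to imEC-like cells the course went the same way, and immature and mature enterocytes did not differ beyond counting error in either matrix.

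The log2 ratio of KO to WT for Efnb2 was -1.83 (-2.13 to -1.55) in mEC-like and -1.52 (-1.86 to -1.18) in imEC-like cells, and close to -1 in TAC-like (-1.01), GC-like (-1.09) and PC-like (-1.18) cells. Among the members in the 8 classes with at least 50 UMIs the mEC-like value was the lowest. It was -1.48 relative to all genes of the class and -1.29 relative to genes of its length quartile, and in imEC-like cells these values were -1.19 and -0.99. In TAC-like and GC-like cells it was -0.64 and -0.89 relative to all genes and -0.12 and -0.43 relative to its length quartile. Quartiles were cut per class, and Efnb2 fell in the longest in these 2 classes but in the third in mEC-like and imEC-like cells. The values relative to length therefore do not share a reference. Shallow clusters held most mEC-like cells of KO, 766 and 328 in the clusters led by Fabp6 and by 2010109I03Rik against 133 and 22 in WT, and without the shallow clusters the mEC-like ratio was -1.77. Of mEC-like cells 20.8% of WT and 6.08% of KO had an Efnb2 UMI. The KO cells were shallower there, so cells were thinned to 1000 UMIs each, which left out 104 WT and 780 KO cells, and the shares were then 5.84% and 1.02%. In PC-like cells they were 0.273% and 0.183%. There the 35 abundant genes took up 78.3% of the UMIs in WT and 74.1% in KO, so few of the 1000 UMIs were left for other genes. The PC-like shares are therefore no low reference for those of mEC-like cells. RNA of mature enterocytes, followed in the same way by the apolipoprotein gene Apoa1, would have brought 0.78 of the 13.6 CPM of Efnb2 in TAC-like and 1.15 of the 28.8 CPM in TC-like cells of WT, and 0.96 of the 2.35 CPM in PC-like and 2.30 of the 8.75 CPM in EEC-like cells.

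Efna1, which encodes ephrin-A1, a ligand of EphA2 anchored by a lipid, was measured in WT at 41.2 CPM (34.9 to 48.3) in imEC-like, 39.9 CPM (35.4 to 44.9) in mEC-like, 29.4 CPM (23.5 to 36.4) in CBC-like and 20.1 CPM (17.8 to 22.6) in TAC-like cells. Its lowest value on the way from stem cells to enterocytes was thus in the transit-amplifying class, in both matrices. In KO the levels were 26.4, 37.5, 25 and 16.1 CPM. The mEC-like ratio was -0.09 (-0.32 to 0.14) and thus 0.26 above all genes of the class (-0.32, -0.58 to -0.07, without the shallow clusters), whereas imEC-like cells were at -0.64 (-0.96 to -0.32). PC-like (0.05), GC-like (0.07) and EEC-like cells (0.36) had ratios above 0, each with an interval that included 0. Efna1 has the shortest transcript of the set, and relative to its own length quartile all 8 classes were below 0, from -0.88 in imEC-like to -0.22 in mEC-like cells.

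Counted over all members, 43 pairs of gene and class had at least 50 UMIs, of which 24 were lower in KO past 1.5-fold and 0 were higher. Ephb2 was among the lower in 8 of 8 classes and Efnb2 in 5 of 5. Over all genes 30.3% of such pairs were lower and 11.6% higher past the same fold. The pairs come from the same cells and share their totals, so they are not independent. By class the members lower were 1 of 5 in CBC-like (33.3% of all genes), 6 of 7 in TAC-like (38.2%), 5 of 5 in imEC-like (36.3%), 3 of 6 in mEC-like (37.5%), 2 of 7 in PC-like (20.2%), 4 of 7 in GC-like (29.4%), 1 of 4 in EEC-like (20.5%) and 2 of 2 in TC-like cells (21.2%). In the same order of classes 5.18%, 4.94%, 5.72%, 6.15%, 14.5%, 13.7%, 28.3% and 24.4% of all genes were higher past the fold, and 0 members were. In CBC-like cells the single member was Ephb2. Relative to the class median of all genes 14 of the 43 pairs were lower past the fold, against 19.9% of all pairs of gene and class. Ephb2 and Efnb2 gave 10 of these 14 pairs, Ephb3 gave those of GC-like and EEC-like cells, Epha2 that of GC-like and Efnb1 that of TC-like cells.

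**Figure D2:**
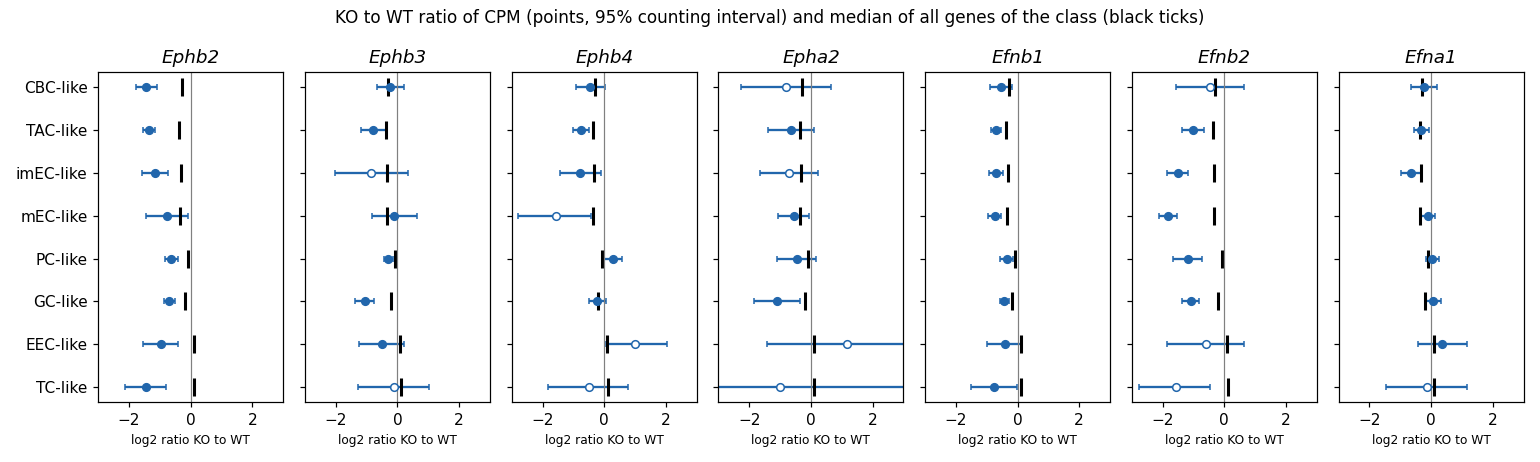
Log2 ratio of KO to WT CPM (horizontal axis) of each gene in the 8 classes (rows). Points are ratios with 95% counting intervals, filled with at least 50 UMIs over both matrices and open below, and black ticks give the class median over all genes; intervals wider than the axis end at its edge. Ephb2 lay left of the class median in every class and Efnb2 in mEC-like cells was lowest, at -1.83.

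To set receptors against ligands within the same cells, the UMIs of Ephb2 and Ephb3 were taken as a share of those of Ephb2, Ephb3, Efnb1 and Efnb2. This EphB receptor share does not depend on the total of a class. The 4 genes differ in length, and Ephb2 lay in the longest and Efnb1 in the second length quartile of CBC-like cells, so the part of transcript length in the differences between KO and WT given below was not tested. In WT it was 64.9% (60.1 to 69.5) in CBC-like, 47.2% (44.9 to 49.5) in TAC-like, 20.2% (17.1 to 23.6) in imEC-like and 8.71% (6.92 to 10.8) in mEC-like cells. Along the enterocyte lineage the balance thus passed from receptors to ligands, with no overlap between the intervals. PC-like cells had the highest share, 70.9% (69.2 to 72.7), with an interval that overlapped that of CBC-like cells. Single PC-like clusters of WT ran from 47.6% to 81.1%. GC-like cells held 43.5%, EEC-like 60.2% and TC-like 55.2%.

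In KO the shares were 57.3% (52.1 to 62.4) in CBC-like, 38.7% (35.9 to 41.6) in TAC-like, 18.5% in imEC-like, 13.4% (10.6 to 16.7) in mEC-like, 40.0% in GC-like and 72.3% in PC-like cells. The order of the lineage was the same. The difference of KO minus WT was -7.61 percentage points (-14.6 to -0.604) in CBC-like and -8.49 points (-12.1 to -4.83) in TAC-like cells and 4.74 points (1.26 to 8.41) in mEC-like cells. Within the mEC-like class the KO share was 28.8% and 29.6% in the shallow clusters led by Fabp6 and by 2010109I03Rik, which held most of its KO cells, whereas in the larger clusters of WT it was 8.64% in WT and 9.27% in KO (led by Reg1) and 6.45% and 9.26% (led by Spink1), with overlapping intervals. In GC-like cells it was -3.45 points (-6.83 to -0.047) and in PC-like cells 1.40 points (-1.74 to 4.48). From CBC-like to mEC-like cells the share differed by 56.2 points in WT and 43.9 points in KO. With cells gated one by one these spans were 60.9 and 54.4 points, and without integration 55.3 and 51.9 points. The KO span was below the WT span in all 8 alternatives run, but the size of the gap depended on how the classes were drawn.

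**Figure D3:**
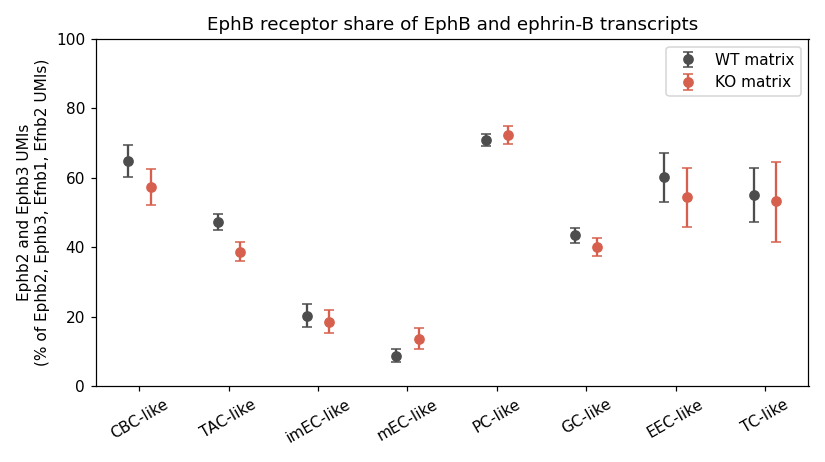
EphB receptor share (vertical axis, Ephb2 and Ephb3 UMIs in percent of the UMIs of Ephb2, Ephb3, Efnb1 and Efnb2) in the 8 cell classes of the WT (grey) and KO (red) matrix, with exact 95% binomial intervals. The share went from 64.9% in CBC-like to 8.71% in mEC-like cells of WT and was highest in PC-like cells, at 70.9% in WT and 72.3% in KO. In WT the PC-like interval overlapped that of CBC-like cells.

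Classes hold several clusters, so the levels were also compared within single clusters that had at least 20 cells in each matrix and at least 20 UMIs of the gene. Ephb2 was lower in KO in 18 of 20 such clusters, with an interval below 0 in 14, and Efnb2 in 18 of 19, with 13. For Ephb2 the CBC-like cluster held 67.9 CPM in WT and 25 in KO, the 3 TAC-like clusters at 61.8 and 23.1, at 57.7 and 30.6 and at 52.8 and 20.9 CPM, and an unnamed cluster led by Olfm4, Sox4 and Ascl2 at 69.9 and 30.4 CPM. For Efnb2 the larger mEC-like clusters were at 51.3 and 15.2 CPM and at 58.2 and 16.3 CPM. Efnb1 was lower in 21 of 25 clusters (14 with an interval below 0), Ephb3 in 17 of 20 (5), Ephb4 in 10 of 16 (7), Epha2 in 8 of 8 (1) and Efna1 in 15 of 24 (4). An interval above 0 was found in 1 cluster for Ephb3, in 1 for Efna1 and in 0 for the other members.

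The highest Ephb3 level of any cluster was found outside the named classes. A cluster of 1070 WT and 293 KO cells led by the genes Jun, Egr1, Ephb3, Acvr1c and Fosb held 109 CPM of Ephb3 in WT and 146 CPM in KO, against 25.6 and 21.9 CPM in CBC-like cells. It had 0 of the class markers among its 50 leading genes and stayed unnamed, and its cells were shallow, with a median of 1369 UMIs in WT and 1911 in KO. Ephb2 stood at 40.6 and 27.3 CPM there, and Efnb2 at 5.0 and 1.52 CPM. Since Ephb3 helped to lead this cluster, its level there describes the cluster and is not a finding about it.

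**Figure D4:**
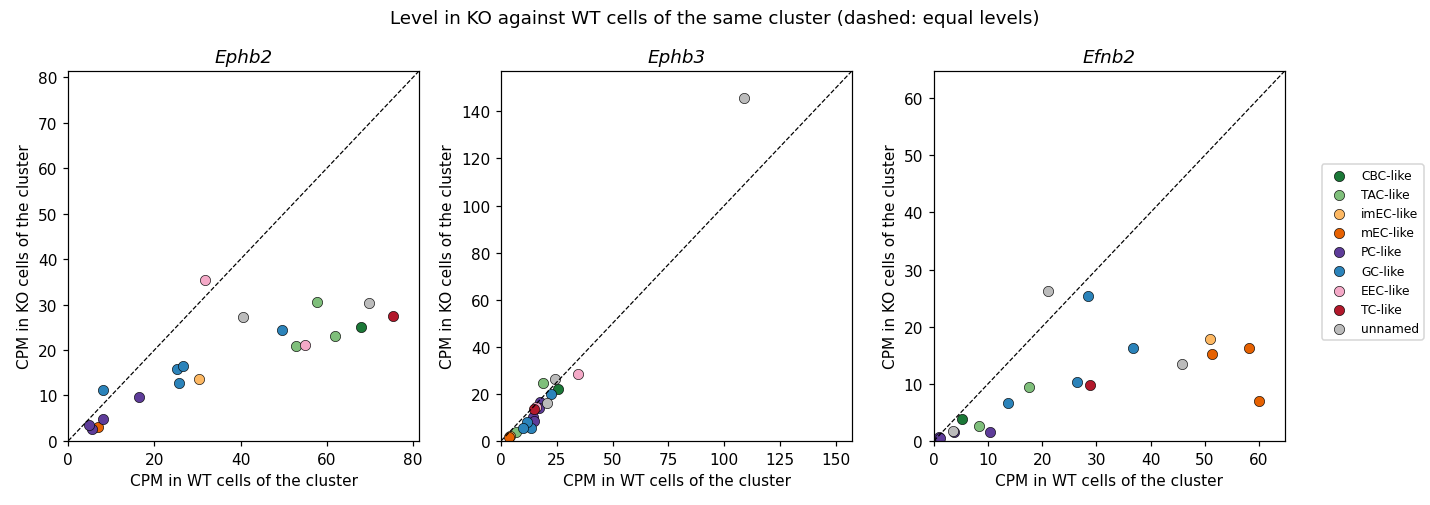
Level in KO (vertical axis, CPM) against WT (horizontal axis, CPM) cells of the same cluster for Ephb2, Ephb3 and Efnb2, for clusters with at least 20 cells in each matrix and 20 UMIs of the gene. Each point is 1 cluster, coloured by the class it was named for, and the dashed line marks equal levels. Ephb2 lay below the line in 18 of 20 clusters and Efnb2 in 18 of 19, and the unnamed cluster with 109 and 146 CPM of Ephb3 lies far from all others.

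Shares of cells followed the levels at matched depth. With each cell thinned to 1000 UMIs, Ephb2 was found in 6.38% of CBC-like cells of WT (4.17 to 9.27) and 2.71% of KO (1.36 to 4.80), against 37.5% and 23.2% without thinning, and in 0.704% and 0.425% of mEC-like cells. For TAC-like cells the thinned share was 5.93% (4.87 to 7.15) in WT and 2.12% (1.33 to 3.18) in KO. A receptor UMI (Ephb2 or Ephb3) and a ligand UMI (Efnb1 or Efnb2) were found in the same thinned cell in 5 of 1737 TAC-like cells of WT, or 0.288%, where the product of both shares is 0.489%. Joint detection was too rare at this depth to be read.

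Of the other 15 Eph receptor and ephrin genes, 5 had at least 50 UMIs over all kept cells. Efna4, another ephrin-A, was measured at 45 CPM in CBC-like cells of WT and 48.6 in KO, and at 4.35 and 8.09 CPM in PC-like cells, a log2 ratio of 0.89 (0.68 to 1.11). Efna3 was at 1.57 and 3.79 CPM in GC-like cells, a ratio of 1.27 (0.64 to 1.94). Both are genes of the shortest length quartile there, relative to which Efna4 in PC-like cells was at 0.52 and Efna3 in GC-like cells at 0.88. Epha1 was highest in mEC-like cells, like Epha2, at 25 CPM in WT and 14.5 in KO, and Epha4 was at 9.70 and 9.72 CPM in CBC-like cells and at 6.97 and 3.83 CPM in TAC-like cells. Efnb3 had 70 UMIs in WT and 57 in KO.

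Genes that act with Eph receptors and ephrins (36 in all, among them adaptors, kinases and the proteases that cut them) were lower past 1.5-fold in KO in 18 of 31 measured genes in CBC-like (33.3% of all genes), 18 of 31 in TAC-like (38.2%), 18 of 30 in imEC-like (36.3%), 16 of 30 in mEC-like (37.5%), 7 of 33 in PC-like (20.2%) and 15 of 33 in GC-like cells (29.4%), and 0 were higher in these classes. In EEC-like cells 8 of 26 were lower and 3 higher (20.5% and 28.3% of all genes), and in TC-like cells 5 of 18 and 1 (21.2% and 24.4%). The median log2 ratio over the measured genes of this list came to -0.76 for CBC-like cells, -0.82 for TAC-like, -0.65 for mEC-like and -0.36 for PC-like cells, where the class medians were -0.30, -0.37, -0.35 and -0.08. Among all genes of the third and the longest length quartile the medians were -0.48 and -0.80 in CBC-like cells. In TAC-like cells these were -0.55 and -0.89, and the part of length in the values of the list was not tested. Of 15 other Wnt target genes 4 of 11 measured were lower and 2 higher in CBC-like cells (33.3% and 5.18% of all genes), with a median of -0.24, the lowest being Axin2, a feedback inhibitor of the pathway, at -1.11 and the highest Ascl2, a stem cell transcription factor, at 0.91. In PC-like cells 1 of 13 was lower and 5 were higher (20.2% and 14.5% of all genes), with Ascl2 at 1.66. Ctnnb1 itself stood at 237 CPM in WT and 146 in KO in CBC-like, 222 and 119 in mEC-like and 56.4 and 39.7 in PC-like cells. In EEC-like cells the Ctnnb1 levels were close, at 139 CPM in WT and 137 in KO.

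The genes with the course most like that of a member were ranked by Pearson's r of log2(CPM + 10) over the 16 values of 8 classes in both matrices, among 9808 genes. The points share the same 2 libraries, so r is a description. For Ephb2 they were Mdn1 (0.98), Pkp1 (0.98), Nmt2 (0.98) and Atxn7l1 (0.97), and for Efnb2 Itpripl2 (0.94), Slc25a24 (0.94), Secisbp2l (0.93) and Ppfibp2 (0.92). For Ephb3 they were Bmp7 (0.93), Soat1 (0.92), Slc19a1 (0.86) and Igfbp4 (0.86), of which Soat1 and Igfbp4 are among the markers used to name CBC-like cells. For Efnb1 they were Canx, Dsc2, Twf1 and Rab21 (all 0.98). Between the members the closest were Ephb2 and Ephb4 (0.83) and Efnb1 and Efnb2 (0.77), while Ephb2 and Ephb3 reached 0.50 and Ephb3 and Efnb2 -0.56.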

How the data were processed

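Cells positive for EpCAM from mouse small intestinal crypts had been profiled in droplets (10x Genomics, 3-prime v2 kit), and the methods give the chip chemistry as v2 or v3. The deposited matrices hold raw counts of UMIs per gene and barcode. Per the file headers the authors made them with Cell Ranger 4.0.0, whereas the submitters' processing notes name Cell Ranger 2.1.1 and mm10. Of the 27998 gene identifiers 98.7% were in GENCODE M21. The members and gene lists were chosen with earlier results of these data known.

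Cells with at least 200 genes and at most 30% mitochondrial UMIs were kept, limits the study gives in its methods and a figure legend. Integration was done with Seurat 5.3.0 under R 4.3.3 (2000 variable genes without the genes read out here, 30 dimensions), and a graph of 15 nearest neighbours weighted by shared neighbours was clustered with leidenalg 0.10.2 at resolution 1. A first graph over all pairs of cells that share neighbours gave no CBC-like cluster; the graph was changed after cluster names and leading genes, Ephb3 among them, had been seen, before levels by class were computed. Clusters were named from at least 3 fixed markers among their 50 leading genes, and since the names were rebuilt here, they can differ from those of the study. Scrublet (scanpy 1.11.5) called 1 of 13095 WT and 0 of 8658 KO cells, so it did not work here and doublets stayed in.

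UMIs were summed per class. CPM carry exact Poisson, ratios exact conditional binomial and shares Clopper-Pearson intervals at 95%, and differences of shares combine the bounds of both. Intervals cover counting error only. With 1 sample per group no test was run, a ratio past 1.5-fold with at least 50 UMIs was counted, and the ratio step was tested on simulated counts. Named genes were the members, the 4 genes most like Ephb2, Ephb3, Efnb1 and Efnb2, other family genes with at least 50 UMIs, and the lowest and highest of a list in the class described, which for the genes that act with Eph receptors are not reported here; genes of the unnamed clusters, Ctnnb1, Lyz1 and Apoa1 were named beside them. Alternatives concerned class drawing, doublets, filters, denominator, log-normalised means and centring.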

Additional observations from a re-analysis of the deposited data

Results flagged for a closer look

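On the CPM scale Ephb4 moved in opposite directions between classes past 1.5-fold with intervals that excluded 0. Its log2 ratio of KO to WT was 1.0 in EEC-like cells, on 14 WT and 31 KO UMIs, and -0.76 in TAC-like, -0.77 in imEC-like and -1.57 in mEC-like cells. Relative to all genes of the class the TAC-like and imEC-like values were -0.39 and -0.45, not past 1.5-fold. The EEC-like and mEC-like values were 0.91 and -1.22 on that scale. The EEC-like and mEC-like values rest on fewer than 50 UMIs, and the difference between the classes was not tested.

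Ephb3 was higher in the unnamed cluster led by Jun, Egr1 and Ephb3 than in any named class, at 109 CPM in WT and 146 CPM in KO, in cells that the comparison by class did not use. Since Ephb3 helped to lead this cluster, the level describes the cluster and is not a finding about it, and its cells were shallow. Markers of PC-like cells summed to 323815 CPM there in WT and 341149 in KO, and Jun was at 1378 and 519 CPM. What these cells are was not tested.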

How the results depend on the processing

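No paired analysis was possible because the barcodes could not be assigned to the labelled samples, and for the same reason no replicate could be left out. Over the single values under all alternatives, 595 stayed within the counting interval of the reported value, 50 left it, and 0 values past 1.5-fold changed sign. Ephb2 in CBC-like cells ranged from -1.56 to -1.15. With log-normalised means Ephb2 in TAC-like cells was -1.07, Efnb1 and Efnb2 in mEC-like cells -0.96 and -2.24 and Ephb3 in PC-like cells -0.076, and 15 pairs of member and class were lower and 1 (Efna1 in EEC-like cells) higher past 1.5-fold. Centred on the median of all genes, Ephb2 in TAC-like cells was -0.98 and Efnb1, Efnb2 and Efna1 in mEC-like cells were -0.40, -1.48 and 0.26, and 14 pairs were lower. With cells gated one by one, Efnb1 and Efna1 in mEC-like cells were -0.98 and -0.44. With abundant genes out of the denominator Ephb3 in PC-like cells was -0.54. Without integration Ephb3 in CBC-like cells was 0.27. Without a minimum of UMIs 2 pairs were higher, Ephb4 and Epha2 in EEC-like cells. The receptor share from CBC-like to mEC-like cells in KO spanned 51.9 points without integration, 54.4 with the gate and 51.0 with the graph over all pairs at resolution 2, against 55.3, 60.9 and 60.4 points in WT. The graph over all pairs and the removal of shallow clusters were chosen after seeing the data. At resolution 1 the former named no CBC-like cells, and Ephb2 in TAC-like cells was -1.31 and Efnb2 in mEC-like cells -1.74. The causes were not tested. Epha2 and the classes TC-like and EEC-like are limited by few UMIs.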
